A study of Mus musculus with 10 samples.

Results

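Regulatory T cells (Tregs) that lack c-Maf were compared between the gut and the spleen, over all expressed genes. The comparison took 5 of the 10 libraries of the series, chosen by their labels alone. They were 2 from gut (replicates 2 and 3) and 3 from spleen (replicates 1, 2 and 3). All libraries came from C57BL/6 mice, as cells sorted for CD4, the T cell receptor beta chain and YFP, from the spleen or from colon and small intestine together. The Maf-KO mice (Maffl/fl x Foxp3Cre-YFP) carried a floxed Maf gene and the Foxp3Cre-YFP allele, so that Cre recombinase, and with it the loss of Maf, was tied to cells that express Foxp3. The WT mice carried Foxp3Cre-YFP alone, so both genotypes share that allele. Their 2 gut and 3 spleen libraries are used here as the same comparison in cells that kept Maf. In the labels, Maf-KO gut replicate 2 and spleen replicate 2 carry the same number in their titles, and so do both replicates 3. No age is given, and nothing says that the replicates are separate animals. The p values thus reflect variation among these libraries, which may be partly technical.

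Tregs are CD4 T cells held in a suppressive state by the transcription factor Foxp3. Those of the spleen are largely circulating cells that carry the homing receptors of lymphoid organs. Those of the intestinal lining have entered the tissue, adhere to epithelium, and make cytokines, growth factors and granzymes near food and microbial antigen. c-Maf is a basic leucine zipper factor of the AP-1 superfamily and is known for its part in Il10 transcription and in Tregs of the gut. The series as a whole asks how c-Maf in Tregs bears on intestinal Th17 cells and IgA. The question here is which differences between gut and spleen were present in Tregs without it.

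Total counts were 12909265 and 13983965 in the Maf-KO gut libraries and 8577819, 8567035 and 9603171 in the Maf-KO spleen libraries, and 3 counts in a library, used as the floor, equal 0.239 to 0.330 CPM (counts scaled to a common, TMM-normalised library total). Throughout, CPM are given for gut replicates 2 and 3 and then for spleen replicates 1, 2 and 3. Maf had 7 and 3 counts in gut and 2, 10 and 2 counts in spleen, against 312 to 918 counts in the 5 WT libraries. The libraries overlapped, and the log2 fold change of -0.23 ± 0.83 (adjusted p 0.87) turned positive under 4 of 22 alternatives. Foxp3, which defines the lineage (chromosome X, 7579676 to 7595243 of GRCm38), had 211 and 174 CPM in gut and 121, 114 and 122.9 CPM in spleen. Both gut libraries lay above all 3 spleen libraries, by a log2 fold change of 0.69 ± 0.14 (standard error) at an adjusted p of 0.0041. Without both replicates 2 its adjusted p was 0.11. Cd4, Cd3e and Trac, which mark alpha-beta T helper cells, ran from 706 to 1562 CPM over the 5 libraries. Il2ra, a further Treg marker, was lower in both gut libraries, at 307 and 412 CPM, than in spleen, at 484, 506 and 704 CPM. Its adjusted p was above 0.05. Here and below, adjusted p values are those of edgeR's quasi-likelihood test after Benjamini-Hochberg adjustment over all 13214 genes tested, a gene below 0.05 is called, and ± after a log2 fold change is its standard error.

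Maf-KO Tregs of the gut held more RNA than those of the spleen for suppressive and repair molecules (Il10, Gzmb, Areg, Ctla4), for cytokines and factors of the Th17 and Th1 programmes, for receptors of the intestinal lining (Ccr9, Itgae) and for immediate-early and NF-kB feedback genes. They held less for receptors and factors of circulating and naive cells, such as S1pr1, Id3 and Tcf7. These are bulk libraries, so for any gene here fewer cells of a type and less RNA per cell cannot be told apart. Nor can the tissue be told apart from the preparation of gut and spleen. Of 13214 tested genes 3772 were called, 1904 higher and 1868 lower in gut, which is 28.5% in all, 14.4% higher and 14.1% lower. Among them 1053 were at least 2 fold higher in gut and 875 at least 2 fold lower, and 314 and 127 differed by at least 8 fold. At least 32 fold higher were 74 genes and at least 32 fold lower 30. Immunoglobulin genes, made by B and plasma cells, gave 109 of the 314 genes at least 8 fold higher, and without them and the marker lists of other cells 197 genes were at least 8 fold higher and 119 lower, and 43 and 28 at least 32 fold. Both gut libraries lay outside the range of the 3 spleen libraries for 3764 of the 3772 called genes, against 56.4% of all tested genes. Both pairs, the replicates 2 and the replicates 3, gave the same sign for 3769. The calls were made from these same libraries, so neither count is an independent check.

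Because same-numbered gut and spleen libraries deviated together, fits that hold the number constant were also made. With the number as a fixed block (the blocked fit below) edgeR called 5243 genes, and with the number as a random effect limma-voom called 5777, of which 2895 were higher and 2882 lower in gut. Scaling to library totals alone moved the median of all tested genes by -0.26 on the log2 scale and the split to 1243 higher and 3701 lower, so 25.1% instead of 50.5% of called genes were higher. Fewer genes were called when any 1 Maf-KO library was left out, 3186, 2881 and 3032 without spleen replicates 1, 2 and 3. The count was lower still without gut replicate 2, gut replicate 3 or both replicates 2, where 1 Maf-KO gut library was left.

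**Figure D1:**
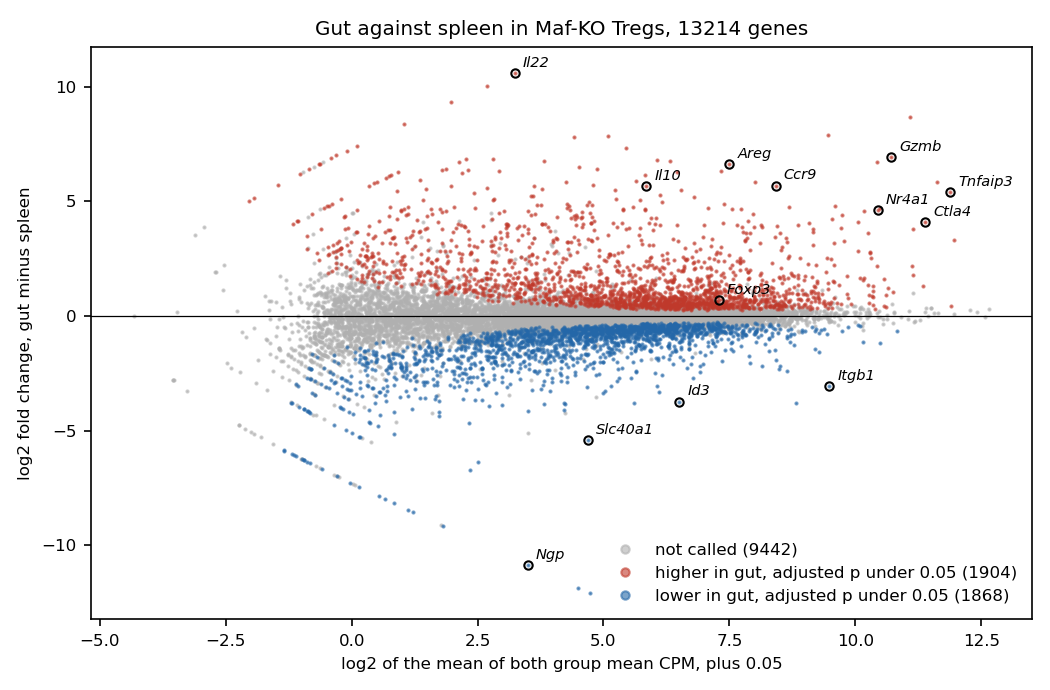
Log2 fold change of gut over spleen in Maf-KO Tregs (vertical axis) against the log2 of the mean of both group mean CPM plus 0.05 (horizontal axis), 1 point per tested gene. Red points are the 1904 genes called higher and blue points the 1868 called lower in gut, grey points were not called, and circles mark 13 genes named in the text. Points on the slanted lines at lower left and upper left have few or no counts in 1 tissue, where the fitted change depends on the prior count.

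The genes with the largest differences towards gut were cytokines, a growth factor, granule and stress genes and a homing receptor. Il22, a cytokine that acts on epithelium (chromosome 10, 118204584 to 118210047), had 13.9 and 23.6 CPM in gut and 0, 0 and 0 CPM in spleen. It had no count in any spleen library, so gut was at least 181-fold higher against the floor of 3 counts over the spleen group. Gzmb, the serine protease granzyme B of cytotoxic granules (chromosome 14, 56258836 to 56262334), had 3134 and 3484 CPM in gut and 14.7, 30.5 and 36.5 CPM in spleen. No spleen library came near either gut library, and the log2 fold change was 6.92 ± 0.48 (adjusted p 9.1e-06). Areg encodes amphiregulin, an epidermal growth factor receptor ligand known for its part in tissue repair (chromosome 5, 91139599 to 91148432). It had 371.1 and 343 CPM in gut and 5.42, 3.08 and 2.34 CPM in spleen, and the 2 gut values differed little from each other beside the distance to spleen (6.63 ± 0.25, adjusted p 2.1e-07). Il10, the anti-inflammatory cytokine for which gut Tregs are known (chromosome 1, 131019845 to 131024970), had 98.3 and 128 CPM in gut and 2.6, 1.76 and 2.24 CPM in spleen. Without Maf it was thus still 5.67 ± 0.28 higher on the log2 scale in gut (adjusted p 9.8e-07).

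Ccr9, the chemokine receptor that guides T cells to the small intestine (chromosome 9, 123767211 to 123783457), had 810.0 and 529 CPM in gut and 8.35, 15.7 and 14.7 CPM in spleen, and the groups were far apart (5.69 ± 0.33, adjusted p 3.0e-06). Ahrr, the repressor of the aryl hydrocarbon receptor and a target of it (chromosome 13, 74211118 to 74292331), had 60.3 and 30.2 CPM in gut and 0.325, 0.55 and 0.584 CPM in spleen. Gut replicate 2 was the higher of the pair, and both stood above spleen by 6.49 ± 0.38 (adjusted p 3.4e-06). Ptgs2, the cyclooxygenase that starts prostaglandin synthesis, had 22.9 and 7.02 CPM in gut and 0.217, 0.33 and 0 CPM in spleen (6.31 ± 0.72, adjusted p 0.00021). Dapk2, a death-associated protein kinase, had 81.6 and 33.7 CPM in gut and 0.434, 1.1 and 0.487 CPM in spleen (6.41 ± 0.48). For both, gut replicate 2 was more than 2 fold above replicate 3. Cables1, an adaptor of cyclin-dependent kinases, had 230.3 and 116 CPM in gut and 2.06, 3.85 and 0.877 CPM in spleen (6.27 ± 0.76), again with gut replicate 2 highest. The other genes with the largest rise were the transcription factors Atf3, Fosb, Fosl2 and Klf4 and the heat shock genes Hspa1a and Hspa1b, described with their families.

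**Figure D2:**
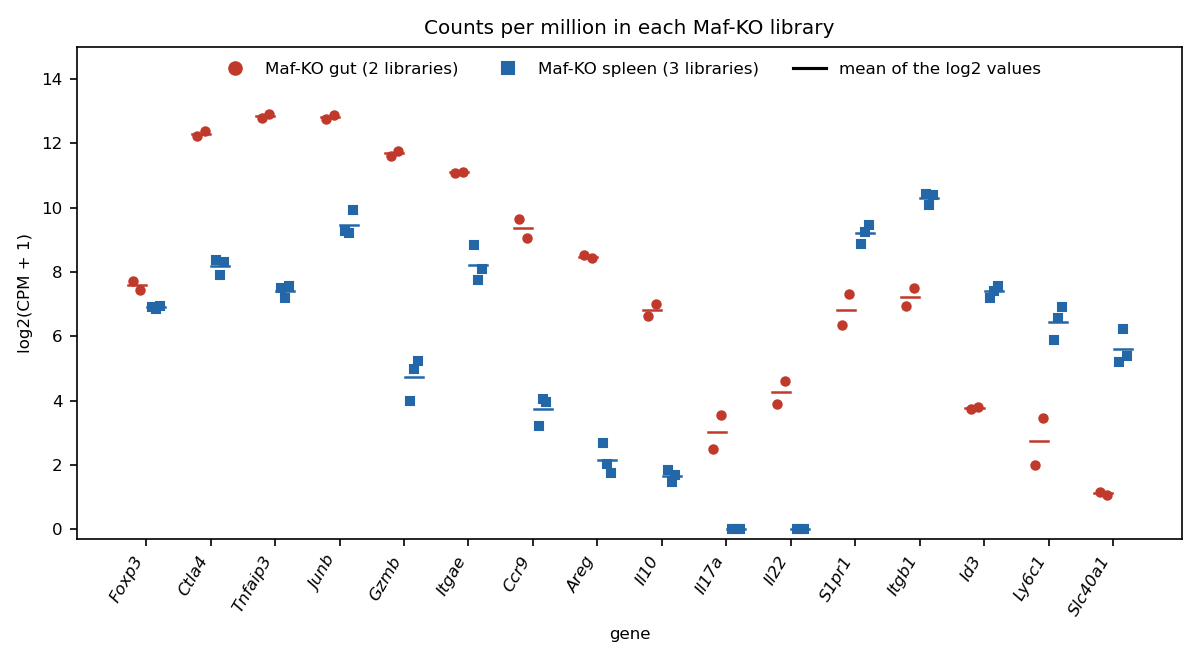
Log2(CPM + 1) in each Maf-KO library (vertical axis) for 16 genes (horizontal axis). Circles are the 2 gut libraries, squares the 3 spleen libraries, and short lines the mean of the log2 values. The groups do not overlap for any of the 16 genes, and Il17a and Il22 lie at 0 in all 3 spleen libraries. Lack of overlap was part of the rule that chose some of these genes, and it held for 56.4% of all tested genes.

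Among the genes with the largest differences towards spleen, one part encodes proteins of circulating and early T cells and another part proteins of granulocytes and splenic macrophages. Id3, an inhibitor of E protein transcription factors (chromosome 4, 136143822 to 136145392), had 12.4 and 12.8 CPM in gut and 145, 170.2 and 190.4 CPM in spleen, with no overlap (-3.74 ± 0.33, adjusted p 4.1e-05). Ly6c1, a surface protein of circulating T cells with a near-identical neighbour that can share its reads, had 2.96 and 10.1 CPM in gut and 58.0, 95.1 and 119.5 CPM in spleen (-3.78 ± 0.48). Fut7, the fucosyltransferase that makes ligands for adhesion to vessel walls, had 0.087 and 0.638 CPM in gut and 9.86, 10.8 and 8.28 CPM in spleen (-4.66 ± 0.52). Ptpn5, a tyrosine phosphatase, had 0.696 and 4.15 CPM in gut and 62.7, 15.6 and 25.1 CPM in spleen (-3.81 ± 0.78), with spleen replicate 1 highest. Zfp708, a zinc finger gene, had 0.957 and 1.04 CPM in gut and 12.9, 16.5 and 15.1 CPM in spleen, tight within each tissue (-3.88 ± 0.28, adjusted p 1.1e-05). AB124611 had 1.39 and 2.23 CPM in gut and 27.0, 21.8 and 30.4 CPM in spleen (-3.85 ± 0.25, adjusted p 7.2e-06). Fcmr, the Fc receptor for IgM, is also a B cell gene and had 3.22 and 1.68 CPM in gut and 25.4, 64.2 and 15.9 CPM in spleen (-3.84 ± 0.66). Chst3, a sulfotransferase, and Tmie, a transmembrane protein, had log2 fold changes of -3.63 and -3.37, and without gut replicate 3 their adjusted p was 0.082 and 0.084.

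Ngp, Ltf and Chil3, made by neutrophils and other myeloid cells, and Fcna and Slc40a1, known from splenic macrophages, completed the largest falls. Ngp had 0 and 0 CPM in gut and 7.81, 53.5 and 6.04 CPM in spleen, and spleen was at least 174-fold higher against 3 counts over the gut group. Ltf had 0.696 and 0.878 CPM in gut and 3.04, 30.4 and 3.41 CPM in spleen. Chil3 had 0 and 0.239 CPM in gut and 4.55, 23.9 and 5.16 CPM in spleen, and spleen replicate 2 was highest for all 3. Without gut replicate 3 the adjusted p of Ngp was 0.0501. Without gut replicate 2, that of Chil3 was 0.055, and Ltf missed the threshold without WT gut replicate 3 (0.0507) and without any 1 of gut replicates 2 and 3 and spleen replicate 2 (adjusted p 0.17, 0.16 and 0.11). By limma-voom the adjusted p was 0.11 for Ngp, 0.18 for Ltf and 0.085 for Chil3. With the pair number as a random effect as well it was 0.058 for Ngp and 0.077 for Ltf, while Chil3 was called. All 3 were called in the blocked fit. Slc40a1, the iron exporter ferroportin, had 1.22 and 1.12 CPM in gut and 36.2, 74.2 and 41.0 CPM in spleen (-5.42 ± 0.54, adjusted p 8.7e-05). Fcna, a ficolin, had 0 and 0.16 CPM in gut and 7.48, 15.1 and 7.6 CPM in spleen. With 2 counts in gut, the ratio of gut to spleen was 0.0084 for Fcna (95% counting interval 0.0010 to 0.031), and with 3 counts it was 0.011 for Chil3 (0.0023 to 0.034). In the same libraries the neutrophil markers S100a8 and S100a9 had no count in gut, and S100a8 had 19.4, 122 and 16.9 CPM and S100a9 17.8, 103 and 14.8 CPM in spleen, again highest in replicate 2. The part of carried-over myeloid RNA in these falls was not tested.

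The called genes with the most counts in gut included Tnfaip3, Junb and Ctla4. Tnfaip3 encodes A20, an enzyme that ends NF-kB signalling (chromosome 10, 19000910 to 19015410), and had 7033 and 7658 CPM in gut and 182, 146 and 187 CPM in spleen (5.42 ± 0.23, adjusted p 3.6e-07). Junb, an AP-1 subunit (chromosome 8, 84976909 to 84978748), had 6916 and 7497 CPM in gut and 623, 595 and 973 CPM in spleen (3.30 ± 0.35, adjusted p 0.00013). Ctla4, the inhibitory receptor by which Tregs compete for costimulation (chromosome 1, 60909025 to 60915832), had 4787 and 5318 CPM in gut and 330.4, 239 and 319 CPM in spleen (4.09 ± 0.20, adjusted p 1.1e-06). Each of these 3 was at least 7 times as high in the lower gut library as in the highest spleen library. Btg1, an antiproliferative factor, had 3635 and 3734 CPM in gut and 1414, 1722 and 1306 CPM in spleen (1.32 ± 0.18). H2-D1, an MHC class I chain whose relatives can share its reads, had 4143 and 4568 CPM in gut and 3080.2, 3131 and 3571 CPM in spleen (0.42 ± 0.12), close values without overlap. The call of H2-D1 was lost with library totals alone (adjusted p 0.29) and without gut replicate 2, gut replicate 3, spleen replicate 1 or spleen replicate 2 (0.056, 0.17, 0.071 and 0.076).

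In the other direction stood genes of adhesion and of the actin skeleton. Itgb1, the integrin beta1 chain (chromosome 8, 128685654 to 128733579), had 123.3 and 181 CPM in gut and 1366, 1093 and 1361 CPM in spleen, a clear gap (-3.06 ± 0.19, adjusted p 6.1e-06). Flna, the actin cross-linker filamin A, had 746 and 1002 CPM in gut and 1909, 1915 and 2191 CPM in spleen (-1.20 ± 0.20, adjusted p 0.0016). Ms4a4b, a membrane protein of T cells, had 674 and 746 CPM in gut and 1294, 1567 and 1804 CPM in spleen (-1.13 ± 0.20), and its adjusted p was 0.055 without both replicates 2. Dock2, an activator of Rac in lymphocyte migration, and Ablim1, an actin-binding protein, differed less, by -0.37 ± 0.12 and -0.43 ± 0.15. Their adjusted p of 0.042 and 0.049 rose above the threshold when any 1 of gut replicates 2 and 3 and spleen replicates 2 and 3 was left out, up to 0.20 for Dock2 and 0.24 for Ablim1. Dock2 also missed it without spleen replicate 1 (0.055) or WT spleen replicate 1 (0.0503), and Ablim1 without WT spleen replicate 2 (0.059) or 3 (0.060). With DESeq2 size factors Dock2 and Ablim1 missed it too (0.051 and 0.063), as they did with no filter on low counts (0.10 and 0.077). Ablim1 further missed it with scaling without immunoglobulin and other-cell genes (0.053) and with the Maf-KO libraries alone (0.054).

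Gene lists were drawn up for 25 states and pathways with earlier results of these data known, so their counts are a description and not independent support. They are given as counts of called members and medians, beside 14.4% called higher, 14.1% called lower and a median of -0.02 over all tested genes. Of 15 genes of Treg identity, 6 rose and 2 fell (median 0.34). In the blocked fit 8 rose and 4 fell (median 0.48), and with library totals alone 6 rose and 5 fell (median 0.08). Besides Foxp3 and Ctla4, Capg, an actin-capping protein, had 744 and 912 CPM in gut and 394, 299 and 334 CPM in spleen (1.28 ± 0.15). Nrp1, a receptor of Tregs from the thymus, had 120.0 and 166 CPM in gut and 617, 474 and 533 CPM in spleen (-1.92 ± 0.23). Gpr83, a G protein-coupled receptor, had 24.9 and 37.8 CPM in gut and 117, 125 and 163 CPM in spleen (-2.11 ± 0.26). Both lay below spleen in each gut library. Ikzf2, which encodes Helios, had 271 and 228 CPM in gut and 237, 185 and 169 CPM in spleen, and its 0.34 ± 0.21 was not called (adjusted p 0.25), but was in the blocked fit (0.0038) and with the number as a random effect (0.038).

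Of 20 genes of effector Tregs and their suppressive molecules 13 rose and none fell (median 1.51). Cd274, the inhibitory ligand PD-L1, had 246 and 267 CPM in gut and 103, 96.6 and 109 CPM in spleen (1.31 ± 0.11, adjusted p 2.3e-05). Klrg1, a receptor of terminally differentiated cells, had 181 and 352 CPM in gut and 25.0, 30.6 and 60.3 CPM in spleen (2.78 ± 0.42, adjusted p 0.00098), with gut replicate 3 at about 2 times replicate 2. Of 14 genes tied to GATA3 and the interleukin 33 receptor ST2 in tissue Tregs, 10 rose and 1 fell (median 1.88), and none fell without gut replicate 2 or 3. Gata3 had 916 and 869.5 CPM in gut and 367, 276 and 278 CPM in spleen (1.54 ± 0.17, adjusted p 0.00015). Rgs2, a brake on G protein signals, had 1374 and 1599 CPM in gut and 53.6, 52.8 and 51.2 CPM in spleen, a wider gap (4.82 ± 0.29, adjusted p 4.9e-06). Il1rl1, which encodes ST2, had 105 and 166 CPM in gut and 52.9, 81.8 and 71.5 CPM in spleen and the smaller difference of 0.98 ± 0.30 (adjusted p 0.036). Its adjusted p was 0.075 with library totals alone, and 0.29, 0.10 and 0.072 without gut replicate 3, spleen replicate 1 and spleen replicate 3.

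The Th17 programme had the highest median of the 25 lists, 3.68, with 13 of 14 genes called higher and none lower. Rora, a nuclear receptor of the programme (chromosome 9, 68653404 to 69388246), had 696 and 755 CPM in gut and 66.0, 60.9 and 75.9 CPM in spleen (3.42 ± 0.14, adjusted p 3.4e-07). Il17a, the signature cytokine (chromosome 1, 20730905 to 20734496), had 4.7 and 10.9 CPM in gut and 0, 0 and 0 CPM in spleen, with no count in any spleen library, and gut was at least 75.3-fold higher. Ccl20, the ligand of Ccr6, had 5.48 and 2.55 CPM in gut and 0, 0 and 0 CPM in spleen, at least 37.7-fold higher. Ccr6 itself had 96.4 and 122.6 CPM in gut and 60.1, 49.3 and 68.3 CPM in spleen (0.89 ± 0.17, adjusted p 0.0043), and without gut replicate 3 its adjusted p was 0.053. Tmem176b, a membrane protein of this list, had 64.8 and 54.0 CPM in gut and 7.81, 11.8 and 7.7 CPM in spleen (2.71 ± 0.22).

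The Th1 programme gave 10 higher and 2 lower of 14 (median 1.40). Ifng, its cytokine, had 66.2 and 78.4 CPM in gut and 6.72, 9.36 and 14.6 CPM in spleen (2.81 ± 0.37, adjusted p 0.00044). Nkg7, a granule protein, had 649 and 736 CPM in gut and 116, 114 and 125 CPM in spleen (2.55 ± 0.13, adjusted p 1.3e-06). The chemokines Ccl4 and Ccl5 went the same way. Ccl4 had 51.9 and 54.7 CPM in gut and 1.52, 3.74 and 3.7 CPM in spleen (4.15 ± 0.43). Ccl5 had 271 and 227 CPM in gut and 25.1, 52.6 and 53.7 CPM in spleen (2.51 ± 0.27). Hopx, a homeodomain protein of effector T cells, had 619 and 831 CPM in gut and 188, 206 and 235 CPM in spleen (1.79 ± 0.17). In none of these 5 did the tissues overlap. The 2 lower genes, named after their values were seen, were Cxcr3 (-0.72) and Eomes (-3.26), a chemokine receptor and a T-box factor, and without gut replicate 2 neither was called. The follicular list was mixed, 3 higher and 4 lower of 15 (median -0.32), and 7 were lower in the blocked fit or with library totals alone. Icos, a costimulatory receptor, had 1203 and 1299.8 CPM in gut and 341, 241 and 218 CPM in spleen (2.23 ± 0.28). Cxcr5, the receptor for B cell follicles, had 19.0 and 25.3 CPM in gut and 105, 76.0 and 72.1 CPM in spleen (-1.93 ± 0.24). Both were free of overlap, Icos above and Cxcr5 below spleen. Btla, an inhibitory receptor, had 47.3 and 48.7 CPM in gut and 181, 157 and 166 CPM in spleen (-1.81 ± 0.15). Il6ra, the interleukin 6 receptor, had 8.87 and 15.7 CPM in gut and 103, 122.6 and 147 CPM in spleen, the widest fall of the list (-3.33 ± 0.32).

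**Figure D3:**
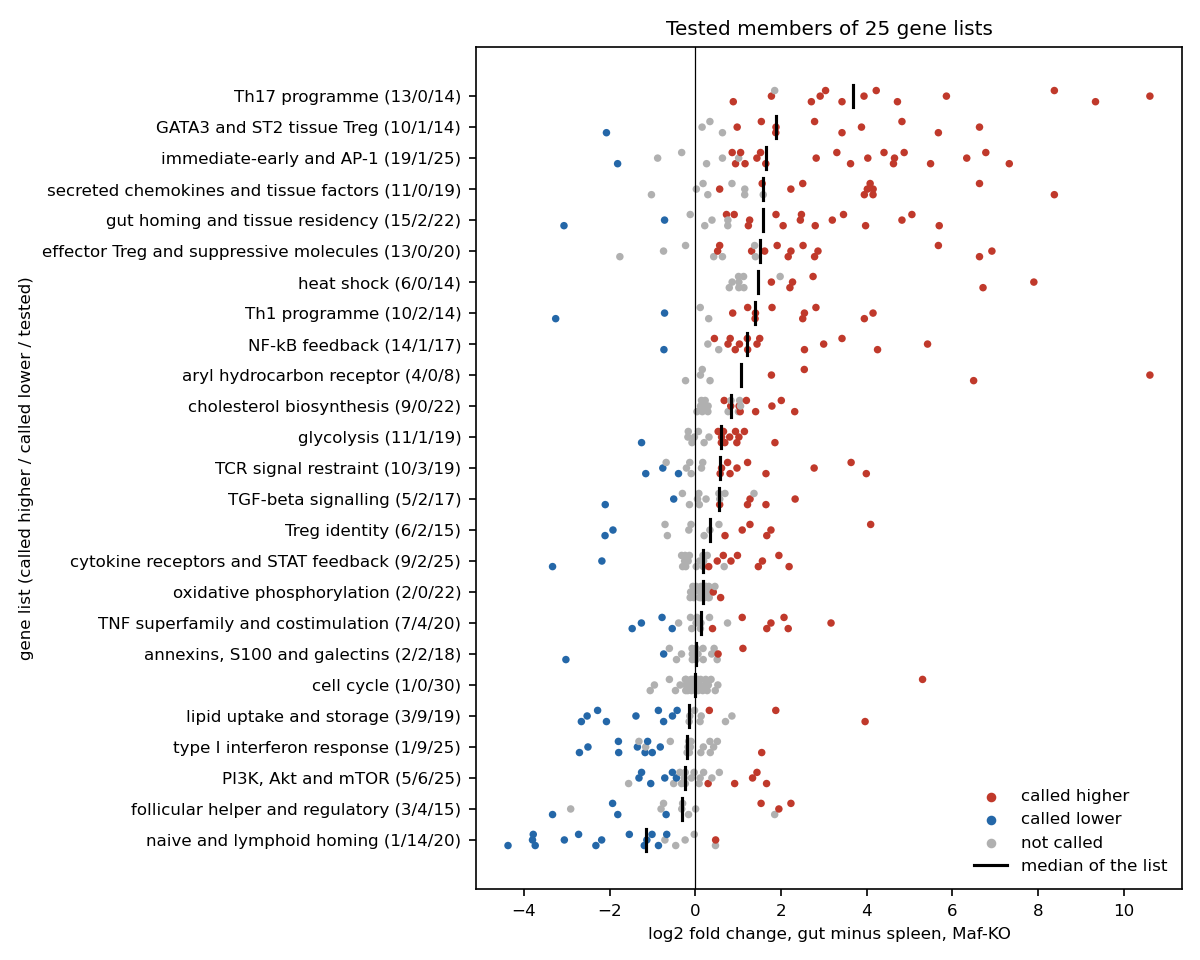
Log2 fold change of gut over spleen in Maf-KO Tregs (horizontal axis) for each tested member of 25 gene lists (vertical axis, with the numbers called higher, called lower and tested). Red, blue and grey points were called higher, called lower and not called, and the black bar is the list's median. The medians run from 3.68 for the Th17 programme to -1.16 for the naive and lymphoid homing genes, and a gene in several lists is drawn in each.

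Receptors and adhesion molecules for mucosa and for lymphoid organs mostly differed in opposite directions. Of 22 genes of gut homing and tissue residency 15 rose and 2 fell (median 1.58). The 2 that fell were Itgb1 (-3.06) and Cxcr3, both described above. Itgae, the integrin chain CD103 that binds epithelial E-cadherin (chromosome 11, 73090505 to 73147449), had 2164 and 2229.6 CPM in gut and 459.6, 215 and 273 CPM in spleen (2.80 ± 0.33, adjusted p 0.00025). Cxcr6, a chemokine receptor of resident T cells, had 755 and 494 CPM in gut and 47.3, 64.1 and 59.0 CPM in spleen (3.46 ± 0.22). Gpr55, a lipid receptor, had 166 and 163 CPM in gut and 11.4, 9.14 and 10.8 CPM in spleen (3.97 ± 0.23). Gpr15, a receptor for the large intestine, had 56.7 and 50.5 CPM in gut and 19.8, 36.6 and 38.5 CPM in spleen, and both gut libraries lay above spleen. Its 0.76 ± 0.26 stood just outside the threshold (adjusted p 0.051) and inside it in the blocked fit (0.0088) and with the number as a random effect (0.011), and without spleen replicate 3 (0.042).

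The 20 genes of naive cells and lymphoid homing ran the other way, with 14 lower and 1 higher (median -1.16). S1pr1, the receptor by which lymphocytes leave tissue for blood, had 81.0 and 158 CPM in gut and 471, 604 and 713 CPM in spleen (-2.32 ± 0.31, adjusted p 0.00049). Tcf7, the factor TCF1 of naive and memory cells, had 116 and 147 CPM in gut and 500.3, 637 and 656 CPM in spleen (-2.19 ± 0.21, adjusted p 7.7e-05). Bach2, a repressor of effector genes, had 8.09 and 16.4 CPM in gut and 58.5, 97.1 and 88.3 CPM in spleen (-2.72 ± 0.35, adjusted p 0.00042). Gut was below spleen in every library for these 3. Ccr7, the lymph node chemokine receptor, did not go with them, at 261 and 629 CPM in gut and 229.9, 342 and 391 CPM in spleen. Gut replicate 3 was highest and replicate 2 inside the spleen range, and the log2 fold change was 0.47 ± 0.34 (adjusted p 0.35), or -0.29 without gut replicate 3. Klf2, which drives S1pr1, had 291 and 365 CPM in gut and 345, 466 and 538 CPM in spleen (-0.46 ± 0.29, adjusted p 0.27), not called. The 1 higher gene, named after its value was seen, was Foxo1 (0.47 ± 0.14, adjusted p 0.030), a factor of naive cells, and with library totals alone or without any 1 of gut replicates 2 and 3 and spleen replicates 1 and 2 it was not called.

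Immediate-early and AP-1 genes, which respond within minutes to receptor signals and to the handling of cells, were called higher in 19 of 25 and lower in 1 (median 1.64). The 1 that fell, Egr2, named after its value was seen, had 32.5 and 25.9 CPM in gut and 141, 75.0 and 92.0 CPM in spleen (-1.81 ± 0.39), and without gut replicate 3 none fell, while the blocked fit gave 2. Nr4a1, Nr4a2 and Nr4a3, nuclear receptors induced by T cell receptor signals, moved alike. Nr4a1 had 2834 and 2524 CPM in gut and 117, 88.2 and 121 CPM in spleen (4.62 ± 0.18). Nr4a2 had 351 and 296 CPM in gut and 10.9, 8.59 and 13.4 CPM in spleen (4.87 ± 0.17). Nr4a3 had 72.9 and 87.6 CPM in gut and 4.01, 2.64 and 2.92 CPM in spleen (4.65 ± 0.19). The Fos family members Fosl2 and Fosb, which pair with Jun proteins, differed more. Fosl2 had 286 and 351 CPM in gut and 4.55, 4.29 and 3.02 CPM in spleen (6.33 ± 0.43, adjusted p 8.0e-06). Fosb had 135 and 180.3 CPM in gut and 0.867, 0.881 and 2.44 CPM in spleen (6.78 ± 0.47, adjusted p 9.1e-06). Atf3, a stress factor of the same superfamily, had 93.4 and 79.6 CPM in gut and 0.108, 1.32 and 0.195 CPM in spleen, at or below about 1 CPM in spleen (7.33 ± 0.55, adjusted p 1.4e-05). Klf4, a Kruppel-like factor, had 58.1 and 88.0 CPM in gut and 2.93, 0.771 and 1.17 CPM in spleen (5.49 ± 0.55, adjusted p 9.5e-05). No gut library of these 7 genes came within 10 fold of a spleen library.

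Heat shock genes are induced by heat and by tissue processing, and 6 of 14 were called higher and none lower (median 1.45). Hspa1a and Hspa1b are near-identical copies whose reads may be split between them. Hspa1a had 2158 and 640.1 CPM in gut and 0.325, 16.8 and 0.682 CPM in spleen (7.90 ± 1.29). Hspa1b had 4193 and 1281 CPM in gut and 1.95, 74.5 and 2.14 CPM in spleen (6.71 ± 1.52). Gut replicate 2 was highest, and among spleen libraries replicate 2, which carries the same number, was highest too. All 14 were called higher in the blocked fit. Hspa5, the chaperone BiP of the endoplasmic reticulum, had 3722 and 3302 CPM in gut and 1195, 1023 and 859 CPM in spleen (1.78 ± 0.15, adjusted p 3.0e-05). Dnajb4, a co-chaperone of the Hsp70 family, had 154 and 114 CPM in gut and 13.4, 28.4 and 17.9 CPM in spleen (2.75 ± 0.29). Bag3, another co-chaperone, had 126 and 78.3 CPM in gut and 23.3, 24.9 and 18.2 CPM in spleen (2.21 ± 0.35). For these 3 the gut replicates were closer to each other than for Hspa1a and Hspa1b. The 14 genes took 1.76 and 0.759% of the counts in gut and 0.351, 0.652 and 0.248% in spleen. For these and the immediate-early genes, as for every other gene here, the preparation of gut and spleen cannot be told apart from the tissue in this design.

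Of 17 genes of NF-kB and its feedback, 14 rose and 1 fell (median 1.21), and none fell without gut replicate 2, gut replicate 3 or spleen replicate 3. Rel, the subunit c-Rel needed for Treg development (chromosome 11, 23736847 to 23770969), had 408 and 433.04 CPM in gut and 39.8, 39.9 and 38.0 CPM in spleen, with nearly equal values within each tissue (3.42 ± 0.12, adjusted p 2.1e-07). Nfkbid, a nuclear inhibitor of the family, had 703 and 630.0 CPM in gut and 97.5, 63.2 and 90.1 CPM in spleen (2.995 ± 0.17). Nfkbiz, its relative, had 1394 and 1433 CPM in gut and 65.0, 63.5 and 93.8 CPM in spleen (4.25 ± 0.28). For the aryl hydrocarbon receptor, a sensor of dietary and microbial ligands, 4 of 8 tested genes rose and none fell (median 1.06). Ahr itself had 324 and 282 CPM in gut and 82.4, 96.7 and 86.2 CPM in spleen (1.78 ± 0.14, adjusted p 1.8e-05). Tiparp, a target that modifies the receptor, had 275 and 192 CPM in gut and 35.4, 45.8 and 39.0 CPM in spleen (2.54 ± 0.21, adjusted p 2.3e-05). Of the classical targets, named after their values were seen, Cyp1a1 had 1.91 and 0.239 CPM in gut and 0.976, 0.55 and 0.974 CPM in spleen (0.34 ± 0.74, adjusted p 0.77).

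Promoters of 5 genes that differed between the tissues are shown because they hold the letters of motifs searched for the factors above. They are RefSeq windows of GRCm38.p6, 250 bases before to 50 after the start, with matches in capitals and touching or overlapping matches run together. The letters were TGANTCA for AP-1, TGCTGA for a short Maf site, GCGTG for a dioxin response element, GGGTGNGG for a KLF site and GGGNNTTCC for kB, on both strands. The genes were chosen after their values were seen.
Ahrr (chr13:74292282-74292581, minus strand): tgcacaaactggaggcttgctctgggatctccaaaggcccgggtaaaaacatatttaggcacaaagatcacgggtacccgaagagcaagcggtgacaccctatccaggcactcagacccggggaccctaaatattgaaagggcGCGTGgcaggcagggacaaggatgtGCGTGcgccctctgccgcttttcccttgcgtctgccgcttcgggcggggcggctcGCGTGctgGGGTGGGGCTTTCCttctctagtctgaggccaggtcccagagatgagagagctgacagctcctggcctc
Tnfaip3 (chr10:19015361-19015660, minus strand): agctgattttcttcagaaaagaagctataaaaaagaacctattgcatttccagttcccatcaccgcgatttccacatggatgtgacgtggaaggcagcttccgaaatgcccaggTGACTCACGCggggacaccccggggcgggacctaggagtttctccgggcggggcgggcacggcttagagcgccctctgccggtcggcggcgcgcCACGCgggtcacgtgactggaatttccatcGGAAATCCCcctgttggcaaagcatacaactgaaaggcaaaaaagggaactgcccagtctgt
Rel (chr11:23770920-23771219, minus strand): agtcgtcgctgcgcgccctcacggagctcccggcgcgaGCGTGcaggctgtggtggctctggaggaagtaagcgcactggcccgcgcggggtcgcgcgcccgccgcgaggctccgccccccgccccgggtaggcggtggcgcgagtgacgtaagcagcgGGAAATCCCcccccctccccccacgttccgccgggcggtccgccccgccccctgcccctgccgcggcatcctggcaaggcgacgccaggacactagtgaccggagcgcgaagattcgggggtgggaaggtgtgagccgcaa
Gzmb (chr14:56262285-56262584, minus strand): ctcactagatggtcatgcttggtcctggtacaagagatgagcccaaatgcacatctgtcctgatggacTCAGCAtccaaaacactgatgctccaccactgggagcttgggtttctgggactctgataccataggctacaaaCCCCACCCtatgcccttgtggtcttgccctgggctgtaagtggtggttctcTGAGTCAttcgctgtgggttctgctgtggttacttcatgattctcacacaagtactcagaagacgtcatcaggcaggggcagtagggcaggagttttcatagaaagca
Il17a (chr1:20730655-20730954, plus strand): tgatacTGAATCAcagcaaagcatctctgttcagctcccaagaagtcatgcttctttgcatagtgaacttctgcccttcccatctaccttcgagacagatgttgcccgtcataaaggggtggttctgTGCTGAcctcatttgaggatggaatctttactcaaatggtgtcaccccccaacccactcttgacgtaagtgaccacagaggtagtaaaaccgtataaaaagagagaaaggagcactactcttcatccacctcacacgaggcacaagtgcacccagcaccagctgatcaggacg
In Ahrr the dioxin element begins at -107, -82 and -27 from the start, followed by a KLF match at -19 that overlaps a kB match at -14. In Tnfaip3 an AP-1 match at -136 overlaps a dioxin element at -131, with another at -42 and a kB match at -12. Rel holds a dioxin element at -212 and a kB match at -91. Gzmb holds a short Maf site at -182, a KLF match at -109 and an AP-1 match at -58, and Il17a an AP-1 match at -244 and a short Maf site at -123.

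Windows were at hand for 9892 of the 13214 tested genes, 12550 windows in all. AP-1 letters stood in 5.82% of the windows of genes called higher, 4.54% of those called lower and 5.04% of all tested. The short Maf site stood in 15.7, 17.5 and 15.5%, the dioxin element in 51.9, 45 and 49.5%, the KLF letters in 22.7, 18.9 and 19.6%, and the kB letters in 7.55, 6.4 and 7.32%, each for called higher, called lower and all tested. For genes called at least 4 fold higher and at least 4 fold lower the shares were 8.35 and 5.2% for AP-1, 15.4 and 19.6% for the short Maf site, 45.8 and 32.1% for the dioxin element, 24.8 and 22.9% for KLF, and 8.35 and 3.98% for kB. No test was made of these shares. Over all 32851 windows of the table the shares were 7.81, 19.5, 32.4, 16.6 and 5.82% for the same motifs in that order from AP-1 to kB. A match of letters is not a bound site.

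Signalling lists were less one-sided. Of 17 TGF-beta genes 5 rose and 2 fell (median 0.55), 8 rose in the blocked fit, and with library totals alone 4 rose and 4 fell. Furin, the protease that activates TGF-beta, had 453.3 and 636 CPM in gut and 108, 101 and 116 CPM in spleen (2.33 ± 0.16, adjusted p 1.0e-05). Skil, a feedback inhibitor, had 561 and 659 CPM in gut and 226, 173 and 185 CPM in spleen (1.65 ± 0.14). Smad7, another, had 179 and 215 CPM in gut and 88.9, 75.9 and 89.1 CPM in spleen (1.22 ± 0.15). The coreceptor Tgfbr3 went the other way, with 5.39 and 8.94 CPM in gut and 26.6, 36.9 and 29.1 CPM in spleen (-2.10 ± 0.24). Of the 2 that fell, 1 was left without gut replicate 2, gut replicate 3 or spleen replicate 3. Of 25 cytokine receptors and STAT feedback genes 9 rose and 2 fell (median 0.19), and with library totals alone 6 rose and 7 fell (median -0.07). Il21r, the interleukin 21 receptor, had 1096 and 1139 CPM in gut and 434, 386 and 389 CPM in spleen (1.47 ± 0.15). Il12rb1, a chain of the receptors for interleukins 12 and 23, had 132 and 182 CPM in gut and 56.5, 41.3 and 61.1 CPM in spleen (1.57 ± 0.17). The survival factor Bcl2 was lower in gut, with 40.0 and 47.6 CPM in gut and 164, 222 and 209 CPM in spleen (-2.18 ± 0.22). Without gut replicate 3 the rises numbered 5, and in the blocked fit 6 genes were lower.

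Of 20 genes of the TNF superfamily and costimulation 7 rose and 4 fell (median 0.12, and -0.13 with library totals alone), and without gut replicate 3 the falls numbered 2. Fasl, the death ligand, had 208 and 194 CPM in gut and 22.3, 22.6 and 22.3 CPM in spleen (3.17 ± 0.15, adjusted p 6.6e-07). Cd40lg, which activates B cells and dendritic cells, had 260.3 and 196 CPM in gut and 46.5, 61.3 and 55.0 CPM in spleen (2.07 ± 0.15). Tnfrsf1b, the TNF receptor of Tregs, had 3482 and 3797 CPM in gut and 1085, 631 and 714 CPM in spleen (2.17 ± 0.26). Tnfrsf9, the costimulatory receptor 4-1BB, had 1301 and 1512 CPM in gut and 566, 277 and 399 CPM in spleen (1.76 ± 0.25). The 4 that fell, named after their values were seen, were the ligands Tnfsf14 (-1.47), Ltb (-0.78) and Lta (-1.26) and the receptor Cd27 (-0.54). Of 19 genes that restrain T cell receptor signals 10 rose and 3 fell (median 0.58), or 7 and 5 with library totals alone, with 6 rises without gut replicate 2 and 6 without gut replicate 3. Dusp5, a phosphatase of MAP kinases, had 831 and 929.8 CPM in gut and 47.8, 55.4 and 62.9 CPM in spleen (3.99 ± 0.19). Dusp4, its relative, had 388 and 501 CPM in gut and 36.6, 24.6 and 46.0 CPM in spleen (3.64 ± 0.23). Sla and Cd6 differed less than these phosphatases. Sla, an adaptor, had 1592 and 1702 CPM in gut and 574, 497 and 504 CPM in spleen (1.65 ± 0.17). Cd6, a surface receptor, had 2094 and 2397 CPM in gut and 906, 911 and 1075 CPM in spleen (1.22 ± 0.14). The PI3K, Akt and mTOR list gave 5 higher and 6 lower of 25 (median -0.23), with 13 lower by library totals alone, and 2, 1 and 3 lower without gut replicate 2, gut replicate 3 and spleen replicate 2. Pik3r1, the regulatory subunit of PI3K, had 401 and 687 CPM in gut and 169, 229 and 204 CPM in spleen (1.44 ± 0.23). Rheb, which activates mTOR, had 164 and 176 CPM in gut and 90.8, 100.3 and 78.5 CPM in spleen (0.92 ± 0.12). Foxo3, a factor that Akt inhibits, had 9.3 and 10.2 CPM in gut and 2.49, 3.41 and 3.31 CPM in spleen (1.66 ± 0.24). Sesn3, a stress sensor, had 82.8 and 80.4 CPM in gut and 34.8, 37.3 and 24.9 CPM in spleen (1.34 ± 0.24). The 6 that fell were named after their values were seen. They included Pik3r5 (-1.04), a PI3K subunit, Pik3ip1 (-1.31), a PI3K inhibitor, and Rptor (-0.53), which is part of an mTOR complex. The others were Eif4ebp1 (-0.71), an mTOR target, Sesn1 (-0.44) and Pdk1 (-1.25). Pdk1 is a pyruvate dehydrogenase kinase, not the kinase that activates Akt, and is counted in the glycolysis list too.

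Type I interferon response genes were called lower in 9 of 25 and higher in 1 (median -0.19), with 15 lower by library totals alone. Usp18, which ends interferon signals, had 8.87 and 12.1 CPM in gut and 48.1, 87.9 and 69.7 CPM in spleen (-2.70 ± 0.26, adjusted p 7.0e-05). Ifit2, an antiviral protein, had 35.2 and 39.9 CPM in gut and 69.8, 87.7 and 96.4 CPM in spleen (-1.17 ± 0.16). Irf9, part of the factor that reads the signal, had 145 and 125 CPM in gut and 236, 304 and 272 CPM in spleen (-1.004 ± 0.15). All 3 lay below spleen in both gut libraries. Isg15, a ubiquitin-like protein, was the 1 called higher, at 117 and 105 CPM in gut and 36.9, 45.5 and 31.8 CPM in spleen (1.55 ± 0.14, adjusted p 5.1e-05). The blocked fit called 4 higher and 13 lower, and 3 were higher without spleen replicate 2. Cell cycle genes were near 0, with 1 of 30 called higher and none lower (median -0.02). That 1 was Cdkn1a, the cell cycle inhibitor p21, at 129 and 143 CPM in gut and 3.79, 5.17 and 1.46 CPM in spleen (5.30 ± 0.37, adjusted p 1.0e-05). Mki67, a mark of dividing cells named after its value was seen, had 101 and 75.1 CPM in gut and 101, 98.2 and 61.7 CPM in spleen (0.02 ± 0.28, adjusted p 0.98). The blocked fit called 7 cell cycle genes higher and 2 lower, and 2 were higher without spleen replicate 1, WT gut replicate 1 or WT gut replicate 3.

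Metabolic lists differed in shape. Of 22 cholesterol synthesis genes 9 rose and none fell (median 0.83), and all 22 had a positive log2 fold change. Hmgcs1, an early enzyme of the pathway, had 214 and 234 CPM in gut and 74.7, 83.0 and 95.8 CPM in spleen (1.41 ± 0.25). Cyp51, a demethylase late in the pathway, had 367 and 406 CPM in gut and 99.2, 92.0 and 97.4 CPM in spleen (2.01 ± 0.27). Values within each tissue were close for these enzymes. Insig1, the sterol-dependent brake on the pathway, had 174 and 189.6 CPM in gut and 33.0, 34.1 and 42.1 CPM in spleen (2.32 ± 0.23). In the blocked fit, and likewise without WT spleen replicate 3, 14 were called higher, and 4 without both replicates 2. Of 19 glycolysis genes 11 rose and 1 fell (median 0.61), with 7 rises by library totals alone and 7 without gut replicate 3, and no fall without gut replicate 2. Hk2, an inducible hexokinase, had 17.1 and 21.9 CPM in gut and 5.75, 3.74 and 6.62 CPM in spleen (1.86 ± 0.25). Gapdh, which has many pseudogenes that can share its reads, had 22.2 and 22.3 CPM in gut and 9.43, 11.2 and 9.45 CPM in spleen (1.15 ± 0.16). The aldolase and phosphofructokinase genes had higher levels and smaller differences. Aldoa had 633 and 662 CPM in gut and 439, 396 and 370.7 CPM in spleen (0.69 ± 0.11). Pfkp had 362 and 353 CPM in gut and 245, 215 and 219.9 CPM in spleen (0.66 ± 0.11). Without both replicates 2 the adjusted p of Pfkp was 0.055.

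Oxidative phosphorylation was called in 2 of 22, both higher (median 0.18), and with library totals alone in 2 others, both lower (median -0.08). Uqcrfs1, the iron-sulfur subunit of complex III, had 140.3 and 163 CPM in gut and 88.8, 101 and 112 CPM in spleen (0.59 ± 0.15). Cox5a, a subunit of complex IV, had 164 and 185 CPM in gut and 119.8, 142 and 129.7 CPM in spleen (0.42 ± 0.11). Neither was called with library totals alone or without gut replicate 3 (adjusted p 0.12 and 0.14). Without spleen replicate 1 Cox5a missed it as well (0.052). In the blocked fit 5 were higher, and 7 with the number as a random effect. Lipid uptake and storage gave 3 higher and 9 lower of 19 (median -0.14), and the falls numbered 2, 2 and 3 without gut replicate 2, gut replicate 3 and spleen replicate 2. Dgat1, which makes triglycerides, had 562 and 492 CPM in gut and 36.3, 31.7 and 33.4 CPM in spleen (3.96 ± 0.21, adjusted p 1.6e-06). Dgat2, an enzyme of the same step, had 44.6 and 52.5 CPM in gut and 16.2, 12.0 and 11.5 CPM in spleen (1.88 ± 0.32). Abca1, a cholesterol exporter, was lower in gut, with 5.91 and 4.71 CPM in gut and 32.4, 43.6 and 24.7 CPM in spleen (-2.66 ± 0.36, adjusted p 0.00053). Scd2, a desaturase, had 53.1 and 59.3 CPM in gut and 104, 105 and 97.0 CPM in spleen (-0.86 ± 0.20), and an adjusted p of 0.078 without gut replicate 2.

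Secreted chemokines and tissue factors were called higher in 11 of 19 tested and lower in none (median 1.59). Xcl1, a chemokine that draws dendritic cells, had 62.6 and 38.4 CPM in gut and 3.58, 2.42 and 2.92 CPM in spleen (4.08 ± 0.27, adjusted p 7.2e-06), beside Ccl4, Ccl5, Ccl20 and Areg above. Annexins, S100 proteins and galectins gave 2 higher and 2 lower of 18 (median 0.02, and -0.24 with library totals alone). Anxa4 had 41.6 and 53.8 CPM in gut and 27.1, 22.1 and 17.0 CPM in spleen (1.11 ± 0.20). Anxa1, a calcium-dependent lipid-binding protein that myeloid cells also make, had 1.04 and 1.68 CPM in gut and 7.15, 18.3 and 8.09 CPM in spleen (-3.02 ± 0.69), with spleen replicate 2, the library with the most S100a8, highest. Anxa2 had 41.7 and 75.1 CPM in gut and 95.9, 100.2 and 96.4 CPM in spleen (-0.74 ± 0.22). Anxa11 had 70.7 and 73.5 CPM in gut and 62.9, 39.6 and 47.1 CPM in spleen (0.53 ± 0.17). Without gut replicate 2 the adjusted p was 0.074 for Anxa1, 0.19 for Anxa2 and 0.13 for Anxa11. Anxa2 also missed the threshold without any 1 of the 3 spleen libraries (0.057, 0.071 and 0.060), and Anxa11 without gut replicate 3 (0.18), spleen replicate 2 or 3 (0.12 and 0.11) or any 1 WT library (0.052 to 0.058). The blocked fit called 4 of the list higher, and without gut replicate 3 there were 4 lower.

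RNA of other cells differed between the tissues too. The 12 plasma cell markers summed to 19316 and 6317 CPM in gut and 501 to 836 CPM in spleen, 8 of 12 were called higher, and Igha, the IgA heavy chain, had 9319 and 2994 CPM in gut and 119, 110.0 and 94.4 CPM in spleen. Immunoglobulin genes took 2.72 and 0.920% of the counts in gut and 0.206 to 0.315% in spleen. Of 187 tested immunoglobulin genes 119 were called higher and 2 lower. The 15 B cell markers summed to 985 to 994 CPM in gut and 1371 to 2072 CPM in spleen, with 12 called lower and Pax5, which defines the lineage, at 0 in gut replicate 3. The 20 epithelial markers summed to 158 to 162 CPM in gut and 36.3 to 71.7 CPM in spleen, most of it Epcam and Cdh1, which T cells can express, 3 of 8 tested were called higher, and 3 to 4 of the 20 were at 0 in gut and 12 to 14 in spleen. The part of these cells in the results above was not tested.

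The 15 markers of macrophages, monocytes and neutrophils overlapped between the tissues, at 119.7 and 354.6 CPM in gut and 157 to 546 CPM in spleen, with S100a8 and S100a9 at 0 in gut. Those of dendritic cells and MHC class II overlapped too, at 701 to 1553 and 549.6 to 1829 CPM. Cytotoxic and innate lymphocyte markers summed to 4228 to 4636 CPM in gut and 96.3 to 217 CPM in spleen. Almost all of the gut sum was Gzma, with 4497 and 4137 CPM in gut and 5.2, 20.1 and 5.94 CPM in spleen, and without it the sums were 91.4 to 139 and 90.4 to 197 CPM. The mast cell sum of 69.2 to 96.2 CPM in gut and 5.94 to 12.3 CPM in spleen was mostly Kit, with 7 of its 10 markers at 0 in each gut library. Red cell, stromal and pancreatic sums were at most 21.8, 180 and 28.3 CPM. Scaling without immunoglobulin and other-cell genes gave 3757 called genes, of which 3728 were among the 3772.

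**Figure D4:**
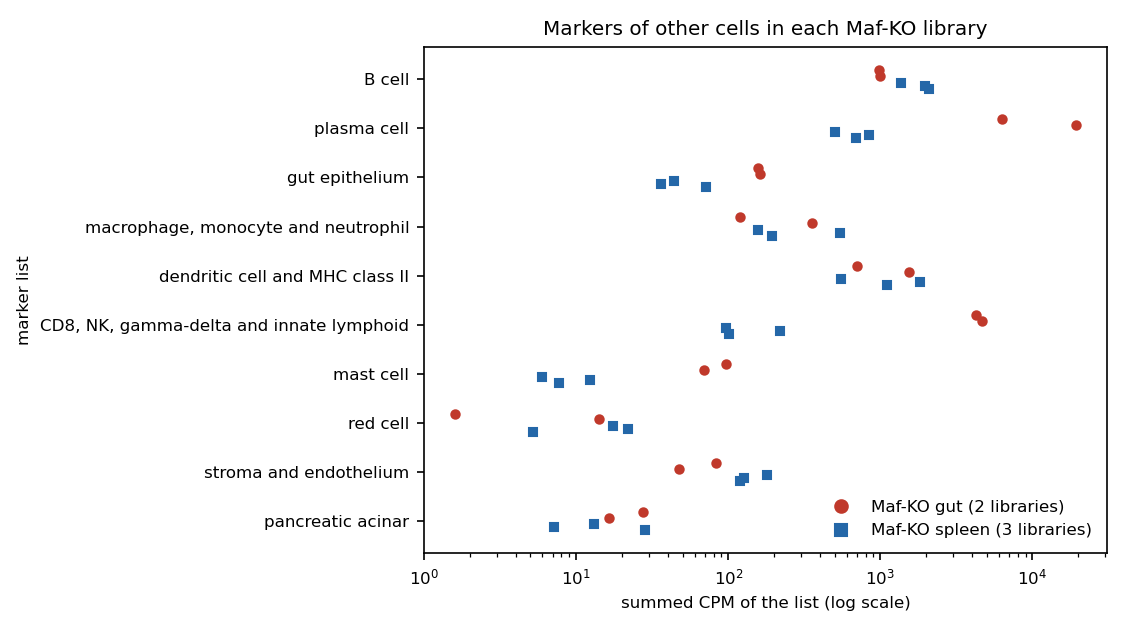
Summed CPM of 10 marker lists of other cells (vertical axis) in each Maf-KO library (horizontal axis, log scale), with circles for the 2 gut and squares for the 3 spleen libraries. Plasma cell markers lie at 6317 and 19316 CPM in gut and at most 836 CPM in spleen, and myeloid and MHC class II markers overlap between the tissues.

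The same comparison in WT Tregs, which shares no library with that in Maf-KO Tregs, called 3703 genes (28%), 1942 higher and 1761 lower. Of the 3772 genes called in Maf-KO, 2825 (74.9%) were called in WT in the same direction, which is 76.3% of the WT calls, and 1 in the opposite direction. Of the 946 called in Maf-KO only, 917 had the same sign in WT and 29 the opposite sign. Over the 13214 genes, which are not independent and share the fit, the log2 fold changes had a Pearson correlation of 0.872 and a Spearman correlation of 0.840. Gzmb was higher in gut by 6.92 in Maf-KO and 6.12 in WT, Areg by 6.63 and 6.64, and Ccr9 by 5.69 and 5.96. Id3 had -3.74 in Maf-KO and -2.92 in WT. The Th17 list had a median of 3.68 in Maf-KO and 3.74 in WT, the naive list -1.16 and -1.74, the immediate-early list 1.64 and 2.58, and the cholesterol list 0.83 and 0.36, differences that were not tested as lists.

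**Figure D5:**
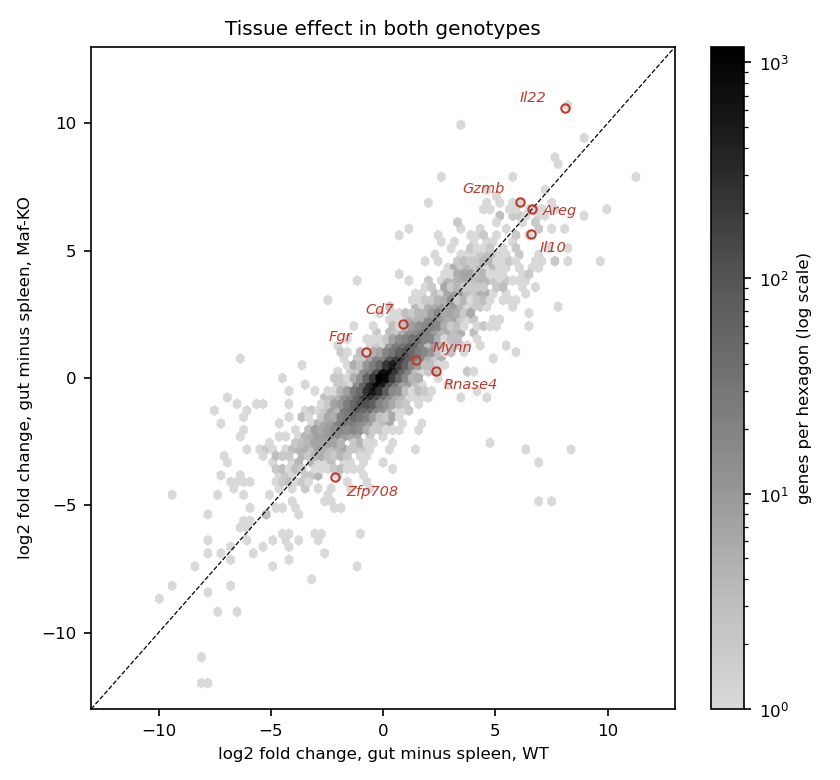
Log2 fold change of gut over spleen in Maf-KO Tregs (vertical axis) against that in WT Tregs (horizontal axis) for all 13214 tested genes, with the shade giving the genes per hexagon on a log scale and the dashed line equal values. Circles mark 9 genes named in the text, of which Fgr lies above 0 in Maf-KO and below 0 in WT.

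Whether the tissue difference itself depended on Maf was tested by the interaction, the tissue effect in Maf-KO minus that in WT. No gene passed by edgeR, and 422 (3.19%) had an unadjusted p under 0.05, a smaller share than that threshold gives with no difference at all. In the blocked fit none passed either, with 963 of 13214 at an unadjusted p under 0.05, and limma-voom called none and DESeq2 8. Rnase4, Mynn, Zfp708, Cd7 and Fgr are described because their unadjusted p was smallest among the genes that could be named. None of them passed by edgeR. The smallest adjusted p by edgeR was 0.60, for Rnase4, a secreted ribonuclease that shares its locus with Ang, so their reads may be mixed (chromosome 14, 51091077 to 51106151). Rnase4 had 2.87 and 2.79 CPM in gut and 2.82, 1.87 and 2.24 CPM in spleen in Maf-KO, where the tissues overlapped, and 60.3 and 51.2 CPM in gut and 10.3, 10.2 and 12.5 CPM in spleen in WT, where they did not. Its interaction was -2.05 ± 0.30 (unadjusted p 4.6e-05), and DESeq2 gave an adjusted p of 0.0030. Mynn, a zinc finger gene, had 129 and 114 CPM in gut and 68.5, 78.7 and 75.8 CPM in spleen in Maf-KO and 212 and 222 CPM in gut and 79.6, 77.8 and 77.4 CPM in spleen in WT (-0.76 ± 0.14, unadjusted p 0.00034). Zfp708 was lower in gut in both, by -3.88 in Maf-KO and -2.12 in WT (-1.76 ± 0.35, unadjusted p 0.00057).

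Cd7, an immunoglobulin-like receptor of lymphocytes, had 257 and 174 CPM in gut and 43.7, 50.8 and 54.8 CPM in spleen in Maf-KO and 68.8 and 81.1 CPM in gut and 41.5, 43.9 and 37.7 CPM in spleen in WT, a wider gap in Maf-KO (1.24 ± 0.24, unadjusted p 0.00047). Fgr, a Src family kinase better known from myeloid cells, had 21.3 and 32.7 CPM in gut and 9.97, 16.4 and 13.2 CPM in spleen in Maf-KO and 8.54 and 8.4 CPM in gut and 12.8, 14.6 and 15.1 CPM in spleen in WT, so gut lay above spleen in the first and below it in the second (1.78 ± 0.35, unadjusted p 0.00052). Without gut replicate 3 the rise of Fgr in Maf-KO was not called (adjusted p 0.13). Mynn, Cd7 and Fgr were among the 8 genes that DESeq2 called, as were Nkg7 and Il21r, whose tissue differences of 2.55 and 1.47 in Maf-KO compare with 1.64 and 0.51 in WT. Another of the 8 was Prss2, a trypsinogen of the pancreas, and in WT gut the pancreatic markers summed to 219 and 46.8 CPM, above the 16.4 and 27.5 CPM of Maf-KO gut. The last was an immunoglobulin kappa segment. Il10 had 616 and 555 CPM in gut and 7.64, 3.69 and 6.83 CPM in spleen in WT, a tissue difference of 6.61 against 5.67 in Maf-KO (-0.93 ± 0.39, unadjusted p 0.038, adjusted p 0.9999). With 2 gut libraries a genotype the median standard error of the interaction was 0.30, so small differences between genotypes were not detectable at this size. Large ones did not pass by edgeR either, such as the -2.05 of Rnase4 (adjusted p 0.60) and the 1.78 of Fgr (0.9999). The lack of calls therefore does not limit such differences to small ones.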

How the data were processed

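RNA from sorted Tregs was made into TruSeq libraries, and the 10 libraries were sequenced, per the labels' protocols. The deposited table holds raw counts per Entrez gene, and the authors' separate files per sample hold log2 FPKM. Per the submitters' processing notes the build was GRCm38 (mm10) and Subread, featureCounts and limma were used, with no roles given. The strand setting and the annotation release are not stated in these sources. Antisense and overlapping genes can therefore share reads.

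Counts of 27179 genes were filtered with edgeR's filterByExpr (minimum count 10, minimum total 15), which left 13214, and scaled by TMM. Genes were tested with edgeR 4.0.16 (R 4.3.3) by the quasi-likelihood test with Benjamini-Hochberg adjustment, in 1 fit of all 10 libraries with a coefficient per group, so that all groups share the estimate of spread. Standard errors are the fold change over the square root of F. The fit was also run on simulated counts. Those had few changed genes and no pairing of libraries, unlike these data, so they do not give the error rate of this comparison. Total counts of 8567035 to 13983965 limit precision for low genes, and intervals and floors cover counting error only.

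Numbers in the titles were taken to pair gut with spleen libraries. Deviations from the group means correlated at 0.382 (replicates 2) and 0.360 (replicates 3) in Maf-KO and at 0.313 and 0.255 in WT. With 2 gut libraries in a genotype their deviations mirror each other, so its 2 correlations are not separate checks. The alternatives were other scalings, filters, DESeq2 1.42.0, limma-voom and limma-trend on log2 FPKM (limma 3.58.1), the pair number as a block, paired libraries alone, Maf-KO libraries alone and each library left out. Leaving out both Maf-KO replicates 2 was chosen after seeing the data. Members and gene lists were chosen with earlier results of these data known.

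Named genes were Maf and Foxp3, the called genes with the largest changes, at most 15 in each direction (mean of at least 5 CPM over the Maf-KO libraries, no overlap, same direction in both pairs), the 5 most counted per direction, up to 4 called members per list by adjusted p, 5 for the interaction and a fixed set. Predicted, ribosomal, mitochondrial and receptor segment genes and other-cell markers were left out of the first and second of these groups and of the interaction. Promoters came from RefSeq. Some genes that this rule names are not reported here.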

Additional observations from a re-analysis of the deposited data

How the results depend on the processing

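Of 127 named genes called in Maf-KO, 107 were called under every alternative that gave a value (23, or 22 for Hspa1a and Hspa1b, which had no adjusted p by DESeq2) and 20 lost the call under at least 1, while none of the 127 changed sign. Most were named for large changes or small adjusted p, so this share does not describe the calls in general. Of all 3772 calls, for example, 2798 were shared without spleen replicate 2. The count of 3772 was 5777 (2895 higher, 2882 lower) with the replicate number as a random block in limma-voom and 5243 with it as a fixed replicate block in edgeR, and 1677 (937 higher, 740 lower) without both Maf-KO replicates 2. Leaving out 1 replicate at a time gave 2118 to 3784 called, 1206 to 1908 higher and 912 to 1876 lower in Maf-KO, lowest without gut replicate 3, and 2183 to 3597 in WT, lowest without WT gut replicate 1. The split became 1243 higher and 3701 lower with library totals alone and 1082 and 3442 with limma-trend on log2 FPKM, so the balance of directions depends on scaling. DESeq2 called 8 genes for the difference of tissue effects, and the other alternatives that gave a value called none. The log2 fold change of Maf turned to 0.0147 with limma-voom, 0.31 without gut replicate 3, 0.98 without spleen replicate 2 and 0.21 without both replicates 2, and ran from -1.003 to 0.98 over the replicates left out. Over the replicates left out, that of Ccr7 ran from -0.29 (without gut replicate 3) to 0.97 (1.01 without both replicates 2), and the difference of tissue effects of Foxp3 from -0.0116 (without WT gut replicate 1) to 0.38, with -0.0080 without both Maf-KO replicates 2. The cause of these shifts was not tested. The replicate block added the calls of Ikzf2 and Gpr15 in edgeR and changed no other call of a named gene there. By limma-voom Ngp and Ltf missed the threshold without the block (adjusted p 0.11 and 0.18) and with it (0.058 and 0.077). Chil3, Tmie and Anxa1 missed it by limma-voom without the block only (0.085, 0.057 and 0.0507).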
